A study of Mus musculus with 8 samples.

Results

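The 7 genes described here encode the NLRP3 inflammasome and its close partners: Nlrp3, Nek7, Txnip, Pycard, Casp1, Casp4 and Gsdmd. They were taken by symbol from the 27998 genes counted in each library, and all 7 were found once. An inflammasome is a protein complex in the cytosol of macrophages and microglia that turns signs of infection or damage into the release of interleukin-1β and interleukin-18 and into pyroptosis, a lytic form of cell death. The sensor NLRP3 binds the kinase NEK7, recruits the adaptor ASC (the product of Pycard) and thereby activates caspase-1, which cleaves the cytokine precursors and gasdermin D (Gsdmd), whose fragment forms pores in the plasma membrane. Casp4 encodes mouse caspase-11, which senses lipopolysaccharide in the cytosol and cleaves gasdermin D directly, and TXNIP is a thioredoxin-binding arrestin that restrains glucose uptake and has been linked to NLRP3 activation. Many of these proteins wait in an inactive form, so transcript levels do not report whether an inflammasome was assembled.

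RNA of single microglia, macrophages that live in the brain and spinal cord, was counted in 8 libraries from the lumbar spinal cord of C57BL/6 mice. All animals carried Cx3cr1-yfp-creER/+, which marks Cx3cr1-expressing cells with YFP and gives them a tamoxifen-inducible Cre, and cells were sorted for YFP after removal of the meninges. Cx3cr1 is also expressed by monocytes and some other macrophages, so neither the sort nor the Cre is restricted to microglia. Control libraries came from animals with no further allele, and A20 cKO libraries from Cx3cr1-yfp-creER/+; Tnfaip3 fl/fl animals, in which Cre removes part of Tnfaip3, the gene of the ubiquitin-editing enzyme A20, a brake on NF-kB. Per the study's methods the animals were young adults given tamoxifen for recombination. For either genotype, a single library was made of uninjured (naive) mice and of mice killed 1, 2 or 3 days after both sciatic nerves had been transected. Cords of several animals were pooled in each library and no group had a second library, so no test between groups was possible. Ranges after values are 95% counting intervals, which say nothing of variation between animals.

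Of 14883 cell barcodes, 14626 were kept, with a median of 2780 to 4274 unique molecular identifiers (UMIs, 1 for each captured RNA molecule) per cell and 1620481 to 15817426 UMIs per library. Microglia markers were nearly ubiquitous: Tmem119 had a UMI in 96.2% to 100% of the kept cells of each library and P2ry12 in 90.1% to 100%. The libraries fell into 2 sets that do not match the genotypes. The first set, below named linked, was made up of all 4 A20 cKO libraries plus control day 3. These shared 256 cell barcodes in 10 library pairs, a median of 13.7 ppm of the possible cell pairs, against 27 barcodes in 3 pairs and 1.59 ppm among control naive, day 1 and day 2. The 15 pairs across the sets shared 98 barcodes, a median of 1.94 ppm. Their range of 0.797 to 8.83 ppm overlapped the 5.41 to 67.6 ppm of the linked pairs. The linked libraries also held more RNA of other cells: Mbp, a myelin gene, had a UMI in 18.5% to 41.5% of their cells against 5.42% to 6.53% in the other 3 libraries. Summed ependymal and choroid plexus markers stood at 129 to 410 CPM (the UMIs of a gene scaled to 1000000 UMIs in the library) against 0 to 0.213 CPM, neutrophil markers at 20.1 to 35.0 CPM against 0, and microglia markers at 11892 to 18936 CPM against 19957 to 24672 CPM. Comparisons between the sets, which include every A20 cKO against control comparison before day 3, cannot be told apart from that difference. In a library, fewer cells with a transcript and less transcript per cell also cannot be told apart from the summed level alone. Tnfaip3 itself stood at 24.1 CPM in control naive, 25.3 in day 1, 6.83 in day 2 and 20.3 in day 3, and at 47.4, 42.3, 52.4 and 67.7 CPM in A20 cKO with the times in the same order. It was higher in every library labelled A20 cKO than in every control library. A 3′ tag does not show whether a part upstream of it was removed, so these counts do not check the genotype labels.

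The 7 genes lie on 6 chromosomes in GENCODE M21 (build GRCm38), and all are annotated as protein coding. Nek7 spans chr1:138482875-138620141 on the minus strand, Txnip chr3:96557957-96561883 on the plus strand, Pycard chr7:127989708-127993867 on the minus strand and Nlrp3 chr11:59541568-59566956 on the plus strand. Casp1 (chr9:5298517-5307265) and Casp4 (chr9:5308828-5336783) are neighbours on the plus strand with 1562 bases between them, and Gsdmd lies at chr15:75862327-75867408 on the plus strand. Nek7, Txnip and Pycard overlap 3, 1 and 1 predicted genes in this annotation, 1 of each on the opposite strand, and the strand setting of the counting is not given in the sources used here. Promoters of 6 of the 7 genes were found in the RefSeq table of build GRCm38.p6, all but Gsdmd.

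The 250 bases before the first listed start of 3 of them are shown because the results below turn on Txnip and Casp4, and because Casp1 is the close neighbour of Casp4 with another pattern. Capitals mark matches, on either strand, to 4 motifs that were chosen after these sequences had been read. The core of the interferon-stimulated response element was taken as GAAA, any 2 letters and GAAA, and a form of the NF-kB site as GGG, any 2 letters and TTTCC. The paired boxes of a carbohydrate response element were taken as CACGNG, any 5 letters and CACGNG, and the FOXO site as GTAAACA.
Txnip (chr3:96557707-96557956, plus strand): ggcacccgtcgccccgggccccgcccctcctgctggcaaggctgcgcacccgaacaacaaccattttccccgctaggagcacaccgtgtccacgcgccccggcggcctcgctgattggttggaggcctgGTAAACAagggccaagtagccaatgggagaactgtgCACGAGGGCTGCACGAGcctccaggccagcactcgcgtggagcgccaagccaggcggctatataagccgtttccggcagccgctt
Casp1 (chr9:5298267-5298516, plus strand): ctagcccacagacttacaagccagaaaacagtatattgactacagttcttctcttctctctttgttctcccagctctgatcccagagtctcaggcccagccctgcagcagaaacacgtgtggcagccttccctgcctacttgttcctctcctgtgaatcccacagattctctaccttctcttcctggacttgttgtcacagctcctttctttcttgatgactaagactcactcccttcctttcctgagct
Casp4 (chr9:5308599-5308848, plus strand): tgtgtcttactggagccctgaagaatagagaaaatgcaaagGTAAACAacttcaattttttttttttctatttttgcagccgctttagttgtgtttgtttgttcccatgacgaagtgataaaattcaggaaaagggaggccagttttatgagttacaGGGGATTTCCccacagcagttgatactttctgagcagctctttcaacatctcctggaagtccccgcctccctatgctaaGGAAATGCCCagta
The Txnip promoter held the paired boxes 85 bases and the FOXO letters 121 bases before the start. The Casp4 promoter held the NF-kB form at 93 and, on the other strand, at 14 bases before the start, and the FOXO letters at 209 bases. None of the 4 motifs occurred in the Casp1 window, nor in those of Nlrp3, Nek7 and Pycard. Among 27025 genes with a promoter in the table, 3.46% held the interferon core, 1.65% the NF-kB form, 0.0518% the paired boxes and 3.54% the FOXO letters in a window of the same length.

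Nlrp3, the sensor, was higher in each linked library than in each of the other 3. Its level was 45.7 CPM (35.9 to 57.3) in control naive, 54.6 in control day 1, 32.9 in control day 2 and 69.0 in control day 3. In A20 cKO it was 75.3 CPM in naive, 86.5 in day 1, 66.3 in day 2 and 71.6 in day 3. The lowest and highest library differed 2.63-fold. On a log2 scale, control day 2 was below control day 1 by 0.73 (ratio −0.73, −0.89 to −0.57), and 2.85% of the genes compared lay lower, while the 3 injured A20 cKO libraries lay within −0.18 to 0.20 of A20 cKO naive with intervals that all reached across 0. Cells were also thinned to 2000 UMIs, so that depth no longer differed, and cells with fewer UMIs were left out. After that, 6.41% of control day 2 cells and 16.4% of A20 cKO day 1 cells had an Nlrp3 UMI, the extremes of the 8 libraries. Without thinning the shares were 11.3% to 24.7%. 

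Nek7, which encodes the kinase that NLRP3 needs for assembly, followed the same split. It was counted at 133 CPM in control naive, 92.9 in day 1, 100.3 in day 2 and 166 in day 3, and at 180 CPM in A20 cKO naive, 158 in day 1, 172 in day 2 and 176 in day 3. The 5 linked libraries spanned 158 to 180 CPM, which the other 3, at 92.9 to 133 CPM, did not reach. Within the 3 other libraries, day 1 and day 2 were below naive by log2 ratios of −0.52 (−0.73 to −0.31) and −0.41 (−0.62 to −0.20). Within the linked A20 cKO libraries the days differed from naive by at most 0.18 on the log2 scale.

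Txnip did not follow the split. It was counted at 286 CPM (260 to 313) in control naive, 285 in day 1, 150.0 in day 2 and 174 in day 3. In A20 cKO it was 268 CPM (258 to 279) in naive, 147 in day 1, 121 in day 2 and 122 in day 3. Thus 3 libraries, control naive, control day 1 and A20 cKO naive, lay between 268 and 286 CPM and the other 5 between 121 and 174 CPM. This grouping was read from the Txnip levels themselves and follows no label. The log2 ratio of control day 1 to naive was −0.01 (−0.14 to 0.14), whereas A20 cKO day 1 was already below its naive library by −0.87 (−1.02 to −0.73). By day 2 the ratios to naive were −0.93 (control) and −1.14 (A20 cKO), and by day 3 they were −0.71 and −1.14. The A20 cKO comparisons stayed within the linked libraries and the control day 2 comparison within the other 3, while control day 3 against naive crossed the sets. Signs of other cells also moved with Txnip inside the linked set. From A20 cKO naive to day 1, day 2 and day 3, the summed microglia markers stood at 18936, 13722, 11892 and 13409 CPM and the ependymal and choroid plexus markers at 129, 410, 398 and 403 CPM, while Mbp had a UMI in 18.5%, 31.2%, 41.5% and 32.4% of cells. Their part in the lower Txnip level was not tested. Among the other 3 libraries, control naive, day 1 and day 2 had microglia markers at 24672, 23348 and 19957 CPM and ependymal and choroid plexus markers at 0 to 0.213 CPM. At 2000 UMIs per cell, 41.4% of control naive cells and 20.3% of A20 cKO day 3 cells had a Txnip UMI.

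Pycard, the adaptor that links sensors to caspase-1, was above naive at each day in both genotypes. Control naive had 566 CPM, day 1 625, day 2 849 and day 3 629, and A20 cKO naive had 485, day 1 563, day 2 606 and day 3 574 CPM. Against naive, the log2 ratios of days 1 to 3 were 0.14, 0.58 and 0.15 for control mice, while A20 cKO mice had 0.22, 0.32 and 0.24, and all 6 intervals lay above 0. None reached 2-fold, and day 2 had the highest level in both genotypes. Control day 3 against naive crossed the sets, and its 0.15 was near the 0.07 of the median gene. Pycard had a UMI in 60.1% to 80.8% of cells thinned to 2000 UMIs and in 71.5% to 93.9% unthinned. In 36 cells of the linked libraries with at least 3 markers of another cell type and at most 2 of 8 microglia markers, 11.1% had a Pycard UMI, at a median depth of 1342.5 UMIs against 3532 in all kept cells.

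Casp1 and Casp4, the genes of the inflammatory caspases, had different patterns although they are neighbours. Casp1 had 69.7 CPM in control naive, 51.9 in day 1, 47.2 in day 2 and 83.0 in day 3, and 79.0, 63.4, 77.5 and 70.0 CPM at the matching times in A20 cKO. Its ranges overlapped between the sets, because control naive lay among the linked libraries. Casp4 was counted at 35.8 CPM (27.2 to 46.3) in control naive, 21.6 in day 1, 22.1 in day 2 and 60.7 in day 3, and at 44.3 CPM in A20 cKO naive, 60.1 in day 1, 60.0 in day 2 and 59.4 in day 3. All 5 linked libraries were above the other 3, and the range over the 8 libraries was 2.81-fold, the widest of the 7 genes. The nearest libraries of the 2 sets were A20 cKO naive and control naive, with a log2 ratio of 0.30 (−0.09 to 0.73). On cells thinned to 2000 UMIs this ratio was −0.03, and 7.35% and 7.37% of their cells had a Casp4 UMI. In A20 cKO the 3 injured libraries lay within 59.4 to 60.1 CPM, with log2 ratios to naive of 0.44, 0.44 and 0.43 and intervals above 0. Control day 1 and day 2 were below control naive by −0.74 (−1.14 to −0.30) and −0.71 (−1.10 to −0.27). At 2000 UMIs per cell, 4.06% to 10.6% of cells had a Casp4 UMI and 8.65% to 15.3% a Casp1 UMI. Among the 36 cells with markers of another type, 0 had a UMI of Casp1, Casp4 or Gsdmd, which allows a share of up to 8.33% for each (3 cells of 36, or 9.74% by the exact interval). So few and shallow cells do not separate Casp4 from its share in the other cells.

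Gsdmd, which encodes the pore-forming executioner, varied least, by 1.48-fold from the lowest to the highest library. Its levels were 107 CPM (92.0 to 125) in control naive, 87.0 in day 1, 72.4 in day 2 and 78.6 in day 3, and 88.5, 79.6, 81.7 and 95.6 CPM in A20 cKO naive, day 1, day 2 and day 3. All 3 control days were below naive with intervals that excluded 0 (log2 ratios −0.31, −0.57 and −0.45), and all 3 A20 cKO intervals reached across 0. Sorted from high to low, 7 of 7 adjacent library pairs had overlapping intervals for Gsdmd, as they did for Nlrp3 and Casp1.

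**Figure D1:**
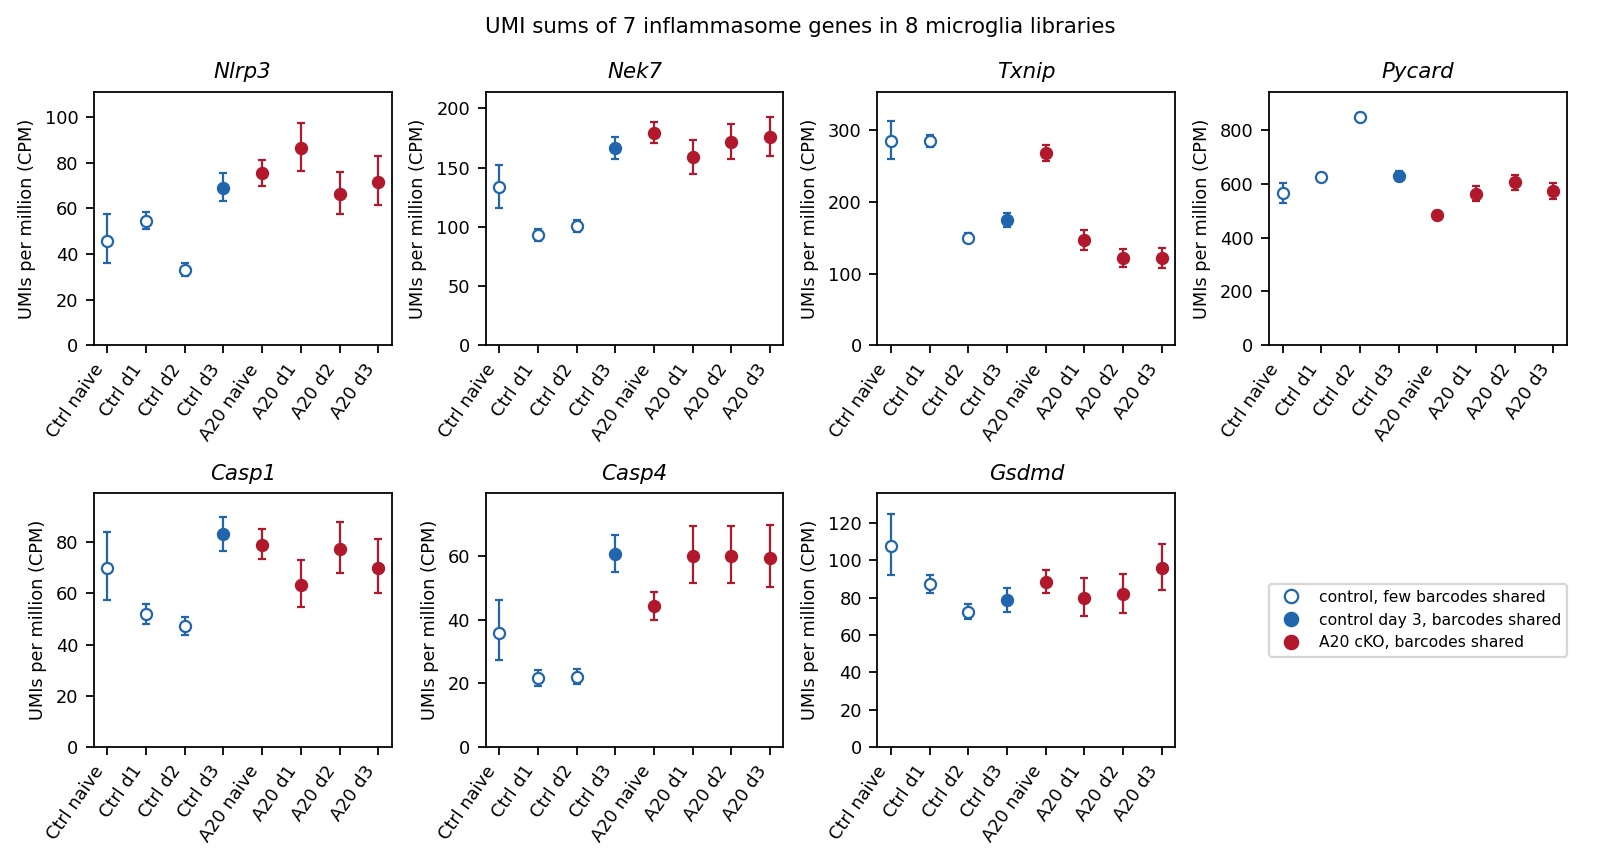
UMI sums of each gene in each library in CPM (y axis), with the 8 libraries on the x axis and 95% counting intervals as bars. Open circles are control naive, day 1 and day 2, and filled circles the 5 linked libraries, which stand above the open ones for Nlrp3, Nek7 and Casp4, while Txnip splits into 3 libraries at 268 to 286 CPM and 5 at 121 to 174 CPM.

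Because each group was 1 library, a gene was called different when its levels differed at least 2-fold and both sums together held at least 100 UMIs. In control animals, each injured library was set against naive and 0 of the 7 genes passed in any of the 3 comparisons, where 11.1% (day 1), 12.2% (day 2) and 11.1% (day 3, across the sets) of all genes did. Control day 2 against day 1 gave 0 of 7 with a background of 5.63%. In A20 cKO, 0 of 7 passed on day 1, and Txnip alone was at least 2-fold lower on day 2 (2.65% of all genes were lower by as much, 5.5% changed either way) and on day 3 (2% and 3.92% of all genes). Ratios below that of Txnip were found for 2.03% of the genes compared on day 1 of A20 cKO, 1.82% on day 2 and 1.34% on day 3. On day 1, with a background of 2.95% in either direction, it missed the 2-fold limit at −0.87.

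The calls above 2-fold came from comparisons that cross the sets. Control day 3 against control day 2 had Nlrp3 (log2 ratio 1.07, 0.89 to 1.25) and Casp4 (1.46, 1.25 to 1.67) at least 2-fold higher, where 13.1% of all genes were and 15.8% differed either way. Casp4 was also called in A20 cKO day 1 against control day 1 (1.48, 1.21 to 1.75), where 15.5% of all genes were higher and 18.8% differed either way, and in day 2 against day 2 (1.44, 1.18 to 1.71), where 10.7% and 15.3% did. Nlrp3 joined it on day 2 at 1.01 (0.77 to 1.25). The median gene itself was shifted by 0.15, 0.20 and 0.06 in these 3 comparisons. Relative to it, Casp4 stayed past 2-fold at 1.31, 1.28 and 1.39, Nlrp3 was just short of it at 0.92 and 0.95 in control day 3 and A20 cKO day 2 against control day 2, and Txnip passed at −1.16 in A20 cKO day 1 against control day 1. Over the 7 genes the median log2 ratio was 0.73, 0.29 and 0.72. These shares of all genes are high, so 1 or 2 of 7 genes is not set apart from the background. A20 cKO naive against control naive called 0 of 7, with 9.65% of all genes past 2-fold. The 2 genotype comparisons within the linked libraries had 0 of 7 each: day 3 against day 3, with a background of 4.26%, and A20 cKO naive against control day 3, with 2.45%. On day 3, A20 cKO was below control in Txnip by −0.52 (−0.70 to −0.34), in Casp1 by −0.24 (−0.49 to −0.002) and in Pycard by −0.13 (−0.22 to −0.05), and above it in Gsdmd by 0.28 (0.06 to 0.50). The other 3 genes, Nlrp3, Nek7 and Casp4, had intervals across 0, with the median of all genes at −0.12 and that of the 7 genes at −0.03. In the 2 control comparisons of day 1 and day 2 with naive, the median of all genes was −0.13 and −0.12 and that of the 7 genes −0.31 and −0.57. Leaving out the cells with markers of other types moved 0 of 91 ratios beyond their counting interval. That setting removed only 36 of 14626 kept cells and left the RNA of other cells in the remaining ones. It therefore could not show the part of that RNA in the difference between the sets, which was not tested.

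**Figure D2:**
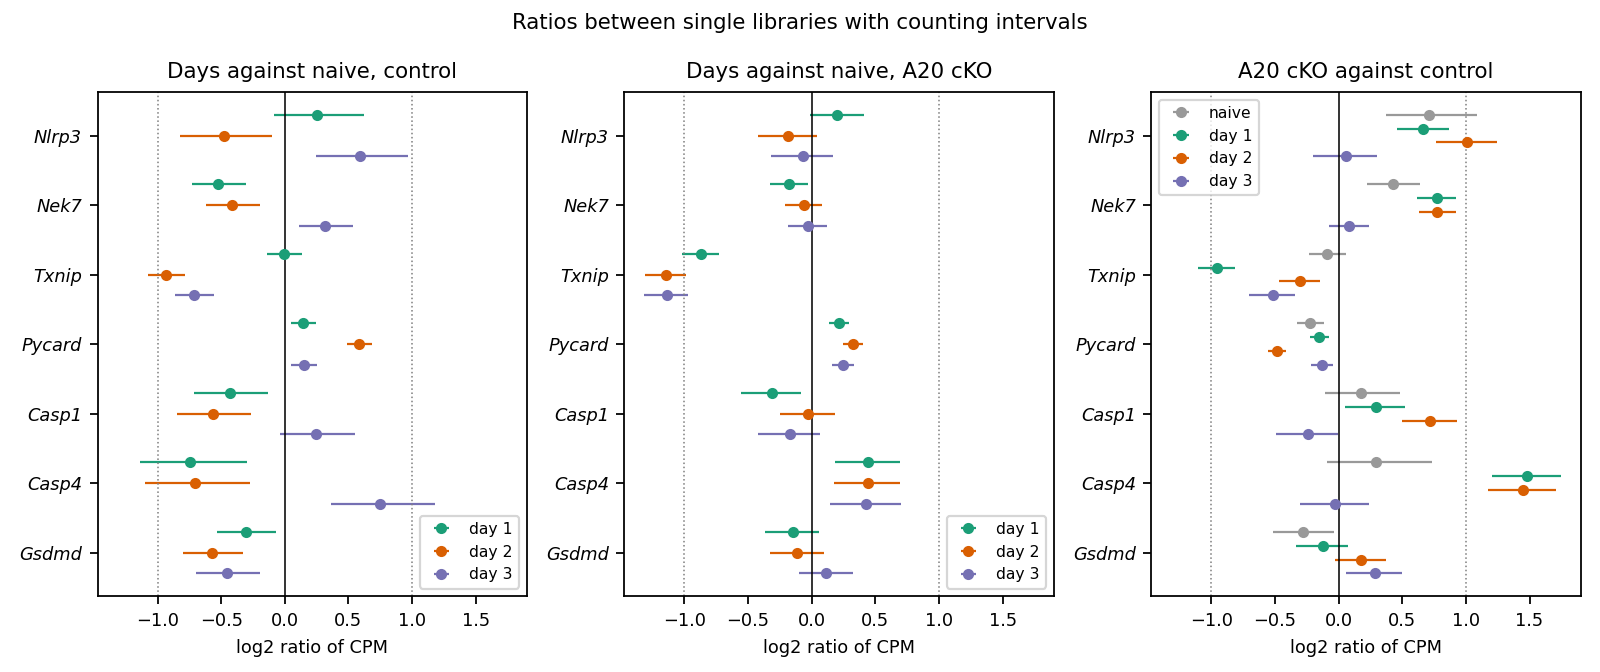
Log2 ratios of CPM (x axis) for each gene (y axis), with 95% counting intervals as bars and dotted lines at 2-fold. Against naive, Txnip lies left of 0 from day 2 in control and from day 1 in A20 cKO, and Pycard right of 0 at every day. In A20 cKO against control, Pycard lies left of 0, at −0.22 in naive and −0.15, −0.49 and −0.13 on days 1, 2 and 3. Casp4 lies there at 0.30 in naive, with an interval across 0, and at 1.48, 1.44 and −0.03 on days 1, 2 and 3. Day 3 is the only one of the 4 genotype comparisons in which both libraries are linked.

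Cells within a library share animals, sort and sequencing, so classes of cells were compared inside libraries, with the library as a block in edgeR's quasi-likelihood fit and p-values adjusted over all genes tested. Dividing cells came first, those in which 3 or more of 18 core G2/M genes had a UMI. They made up 33.1% of control day 2, 11.3% of control day 3 and 3.32% to 16.6% of the A20 cKO libraries, and 0.176% and 0.301% of control naive and day 1, which held too few to be used. Between 7 and 408 cells per library sat exactly at the limit of 3 genes. Dividing cells were deeper, with median depths of 4740 to 6667 UMIs against 2792 to 4149 in the rest.

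In the 6 libraries used, 3 of the 7 genes were lower in dividing cells, where 10.4% of 10787 genes were lower and 13.5% higher. Txnip had the clearest difference, a log2 ratio of −0.55 (SE 0.09, edgeR adjusted p = 0.00016). It was counted at 120 CPM in dividing cells against 173 in the rest in control day 2, at 125 against 184 in control day 3 and at 165 against 274 in A20 cKO naive. A20 cKO day 1 had 95.2 against 150 CPM, A20 cKO day 2 87.0 against 133, and A20 cKO day 3 was the exception with 128 against 121 CPM. Gsdmd was lower in dividing cells in 6 of 6 libraries, with a log2 ratio of −0.43 (SE 0.11, edgeR adjusted p = 0.0062), for example 64.8 against 78.3 CPM in control day 2 and 56.5 against 83.0 CPM in control day 3. Nek7, whose protein also acts in mitotic spindle assembly, was lower by −0.23 (SE 0.08, edgeR adjusted p = 0.046) and in 5 of 6 libraries. This call held in 3 of 15 alternative fits (adjusted p 0.013 to 0.57) and was lost without control day 2, control day 3 or any of A20 cKO naive, day 1 and day 2, with adjusted p of 0.064 to 0.16. Nlrp3 (−0.26), Casp1 (−0.20), Casp4 (0.20) and Pycard (0.07) did not pass, and the median of the 7 genes was −0.23 against −0.04 over all genes tested. Without dividing cells, the log2 ratio of Txnip in control day 2 to naive moved from −0.93 to −0.72.

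The second class had a UMI of at least 3 of 14 interferon-induced genes, such as Ifit and Oasl genes. It made up 34.5% to 84.1% of each linked library and 2.32% to 4.18% of the others, and its cells had median depths of 3316 to 5333.5 UMIs against 2583 to 4067 in the rest. Between 9 and 231 cells per library sat at the limit. Of the 7 genes, 2 were higher and 1 lower in the class over 8 libraries, where 8.1% and 5.55% of 10759 genes were. Casp4 was higher by a log2 ratio of 1.10 (SE 0.12, edgeR adjusted p = 4.5e-08), above 98% of the genes tested, and passed in 17 of 17 alternative fits (adjusted p 1.5e-20 to 0.0092). Its levels in and outside the class were 87.8 and 32.4 CPM in control day 3, 66.6 and 28.0 in A20 cKO naive, 80.2 and 38.8 in A20 cKO day 1, 62.3 and 44.7 in A20 cKO day 2, and 62.1 and 39.4 in A20 cKO day 3. In control day 1 and day 2 they were 34.5 and 21.2 CPM and 34.3 and 21.3 CPM. Control naive had only 2 Casp4 UMIs in the class, or 28.2 CPM, against 36.1 outside.

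The cells of this class supplied 63.5% to 92.1% of all Casp4 UMIs in the linked libraries and 3.45% to 8.88% in the others. They also supplied 42.3% to 88.0% and 2.68% to 5.71% of the UMIs of all genes. The share of Casp4 stood furthest above that of all genes in control day 3 (73.8% against 50.9%) and A20 cKO naive (63.5% against 42.3%), and was close to it in A20 cKO day 2 (90.1% against 86.7%) and day 3 (92.1% against 88.0%), where Casp1 had 83.8% and 93.8%. Outside the class, Casp4 lay at 28.0 to 44.7 CPM in the linked libraries and at 21.2 to 36.1 CPM in the others, so that the ranges, which were apart in whole libraries, overlapped. For Nlrp3 and Nek7 they stayed apart outside the class, at 62.4 to 88.4 against 33.1 to 54.5 CPM and at 147 to 194 against 92.8 to 135 CPM.

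Casp1 differed by 0.23 (SE 0.09, edgeR adjusted p = 0.11) between the class and the rest and did not pass. Pycard was higher by 0.23 (SE 0.07, edgeR adjusted p = 0.025), with class above rest in 8 of 8 libraries, but it passed in 8 of 17 alternative fits (adjusted p 0.0020 to 0.996) and not without control day 3, A20 cKO naive, A20 cKO day 2 or A20 cKO day 3 (adjusted p up to 0.12). With the class called on cells thinned to 2000 UMIs the difference was 0.00. Txnip was lower by −0.33 (SE 0.09, edgeR adjusted p = 0.0089). The largest of its differences was in A20 cKO naive, at 182 CPM in the class against 332 outside, and without that library the ratio was −0.22 and did not pass (adjusted p = 0.093, 13 of 17 alternative fits passed, 0.0010 to 0.79). Nlrp3, Nek7 and Gsdmd differed by −0.08, −0.02 and 0.11 and did not pass, and the median of the 7 genes was 0.11 against −0.02 over all genes tested.

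**Figure D3:**
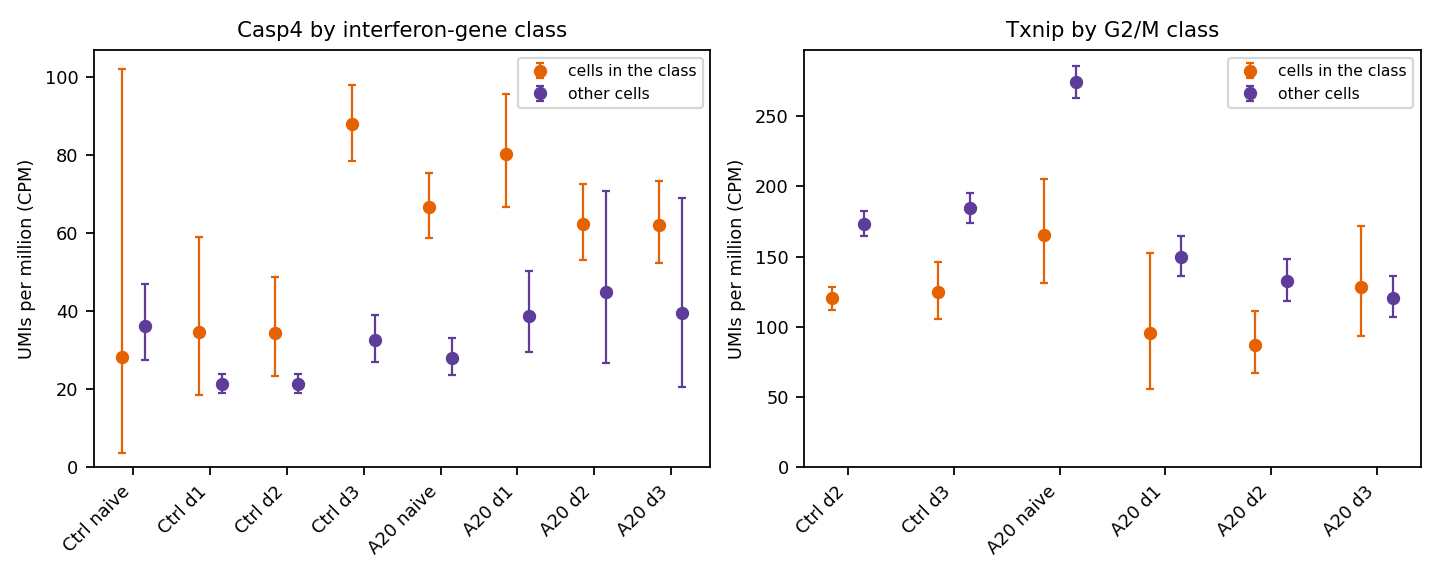
Left, Casp4 in CPM (y axis) in cells with at least 3 interferon-induced genes (orange) and in all other cells (purple) of each library (x axis), and right, Txnip in dividing cells and the rest. Bars are 95% counting intervals, and Casp4 is higher in the class in 7 of 8 libraries, while Txnip is lower in dividing cells in all but A20 cKO day 3.

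The third class had at least 1 UMI of Il1b, the cytokine that caspase-1 matures. It was small, 0.425% to 5.69% of cells, and 4 libraries had at least 20 such cells. Casp4 was higher by a log2 ratio of 0.87 (SE 0.22, edgeR adjusted p = 0.027), where 0.467% of 10273 genes were higher and 0.0973% lower, and the other 6 genes did not pass. The difference sat in the A20 cKO libraries, at 136 CPM in Il1b cells against 41.8 in the rest in A20 cKO naive and 137 against 57.2 CPM in A20 cKO day 1. The A20 cKO values rest on 32 Casp4 UMIs in 57 Il1b cells and on 15 in 29. In control day 1 and day 2 the values were 25.3 against 21.3 and 18.5 against 22.2 CPM, and whether the genotypes differed was not tested. Both A20 cKO libraries are linked and both control libraries are not, so genotype and set cannot be told apart here. The linked libraries also held neutrophil markers, and whether Il1b cells included such cells was not tested. The call was lost without A20 cKO naive (log2 ratio 0.41, adjusted p = 0.999) and without A20 cKO day 1 (0.73, adjusted p = 0.16), and held in 5 of 10 alternative fits (adjusted p 3.0e-05 to 0.99996). Nlrp3 in Il1b cells differed by −0.08 and Casp1 by 0.16 on the log2 scale, and the median of the 7 genes was −0.03 against −0.01 over all genes tested.

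**Figure D4:**
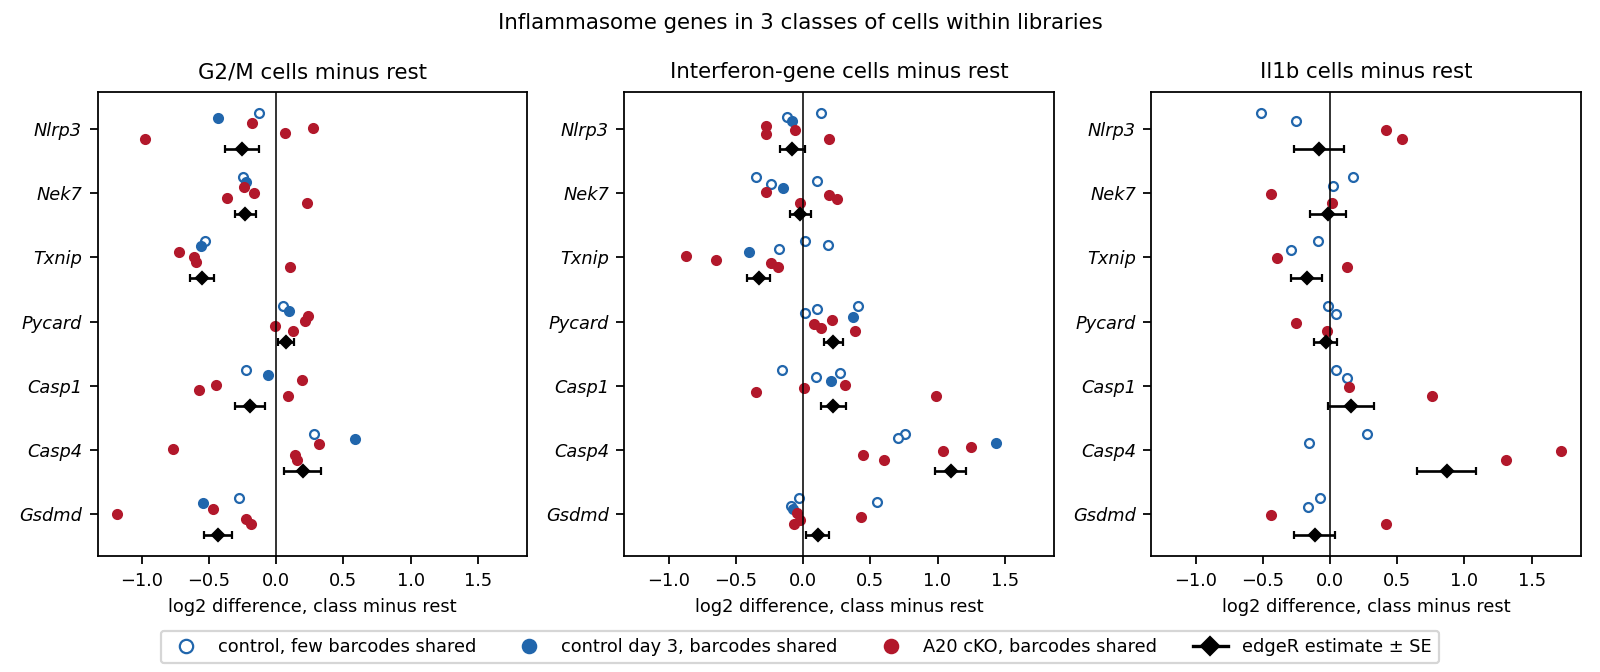
Log2 difference of each gene (y axis) between a class of cells and the rest of the same library (x axis). Circles are libraries with at least 3 UMIs in both sums, diamonds the edgeR estimate with its SE, and the estimates stand away from 0 in the 7 calls, which are Txnip, Gsdmd and Nek7 in G2/M cells, Casp4, Pycard and Txnip in interferon-gene cells, and Casp4 in Il1b cells.

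The wider pathway was described by 66 genes in 8 lists. Counted with the 2-fold rule, control day 1 against naive had 5 higher and 5 lower of 43 genes compared (3.82% and 7.25% of all genes), and day 2 against naive 3 and 4 of 43 (5.92% and 6.28%). Among the cytokines, Il1b had 3.09 CPM (5 UMIs) in control naive, 18.2 in day 1, 4.55 in day 2 and 1.78 in day 3. It had 12.3, 14.5, 6.92 and 10.6 CPM at these times in A20 cKO. Il1a, the alarmin form of interleukin-1, had 106, 229, 107 and 67.0 CPM over the control time course and 66.4, 91.8, 58.3 and 68.5 CPM over that of A20 cKO. Both were past 2-fold higher on control day 1 against naive and past 2-fold lower on day 2 against day 1, where 3 of 47 pathway genes were lower and 0 higher (1.83% and 3.8% of all genes). Il18, the other caspase-1 substrate, stayed between 37.6 and 56.3 CPM in all 8 libraries. Il1rn, the receptor antagonist of interleukin-1, spanned 0.213 to 3.57 CPM over the control libraries, on 2 to 28 UMIs per library. It had 5.94, 46.6, 14.5 and 13 CPM in A20 cKO naive, day 1, day 2 and day 3. In A20 cKO day 1 it was past 2-fold against its naive library. All A20 cKO libraries are linked and held neutrophil markers, and the part of such cells in the Il1rn level was not tested.

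Between the sets, control day 3 had 19 of 50 pathway genes higher and 0 lower than day 2 (13.1% and 2.69% of all genes), and 16 of 44 higher and 0 lower than naive (8.76% and 2.32%). A20 cKO against control had 16 of 47 higher and 0 lower in naive animals (7.43% and 2.22% of all genes), 18 and 4 of 50 on day 1 (15.5% and 3.25%) and 17 and 2 of 48 on day 2 (10.7% and 4.66%). Those higher in control day 3 than in day 2 included 5 of 5 guanylate-binding proteins, which help to expose bacterial lipopolysaccharide to caspase-11, 5 of 8 other sensors compared and 4 of 5 pyrin or CARD regulators. Gbp2 was counted at 5.56 CPM in control day 2, 68.1 in control day 3 and 29.1 to 58.6 in A20 cKO. Nlrp1b, listed among the other sensors, was at 7.90 to 15.4 CPM in control naive, day 1 and day 2 and at 36.3 to 55.1 CPM in the linked libraries. Pydc4, which encodes a pyrin-only protein, was at 0.617, 1.14 and 0.822 CPM in control naive, day 1 and day 2, at 33.5 CPM in control day 3 and at 114, 126, 211 and 235 CPM in A20 cKO naive, day 1, day 2 and day 3. Zbp1, a nucleic acid sensor upstream of necroptosis and NLRP3, was at 6.83 to 10.5 CPM against 85.2 to 207 CPM.

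Within the linked libraries the pathway lists moved less. A20 cKO day 1, day 2 and day 3 against naive had 1, 1 and 4 genes higher and 2, 1 and 1 lower of 48 or 49 compared, where 1.56%, 2.86% and 1.92% of all genes were higher and 1.39%, 2.65% and 2% lower. Arrdc3, an arrestin of the same family as Txnip, was past 2-fold lower on each day, from 47.2 CPM in A20 cKO naive to 17.5, 16.8 and 20.5 CPM. In control it was at 14.2, 39.3, 9.99 and 39.7 CPM in naive, day 1, day 2 and day 3, so it was past 2-fold higher on day 1, where Txnip differed from naive by −0.01. A20 cKO day 3 against control day 3 had 3 of 45 higher, Nlrc5, Pydc3 and Pydc4, and 1 lower, Gbp7 (1.86% and 2.4% of all genes), and A20 cKO naive against control day 3 had 3 of 51 higher and 2 lower (0.964% and 1.49%). Pydc3 was at 24.8 CPM in control day 3 and 72.8 in A20 cKO day 3. P2rx7, the ATP-gated channel that starts NLRP3 activation, was past 2-fold in 0 of the 13 comparisons and lay between 79.5 and 184 CPM.

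**Figure D5:**
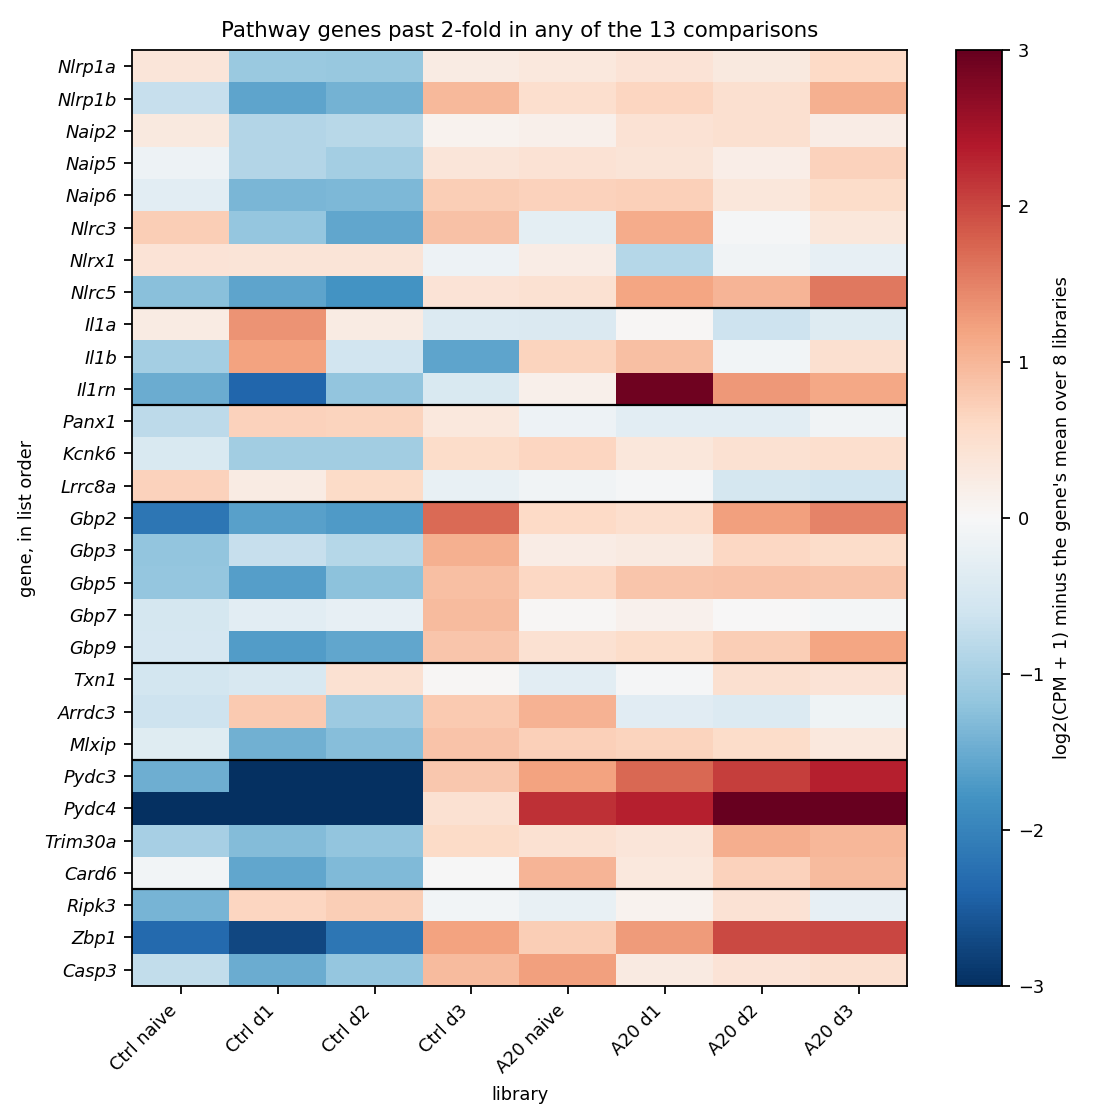
Heat map of the 29 of 66 pathway genes past 2-fold in any of the 13 comparisons (y axis, black lines between lists) over the 8 libraries (x axis). Colour is log2(CPM + 1) minus the gene's mean, drawn from −3 to 3, and guanylate-binding proteins, pyrin-only genes and Zbp1 are blue in control naive, day 1 and day 2 and red in the linked libraries, except Gbp7, which is near its mean in A20 cKO.

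Sparse capture limits how often several genes are detected in a single cell. At 2000 UMIs per cell, Nlrp3, Pycard and Casp1 were detected together in 0.465% (0.261 to 0.766) of control day 1 cells, the lowest share, and 1.15% (0.776 to 1.64) of A20 cKO naive cells, the highest. A cell showed a median of 2 of the 7 genes in every library, and 8.10% to 11.3% of cells showed none. Over 13691 thinned cells, the number with both genes of a pair was 0.78 to 1.06 times the number given by their separate shares within each library. The lowest pair was Nlrp3 with Casp4, in 84 cells against 107 (ratio 0.78, 0.62 to 0.97), and it was the only one of 21 pairs whose counting interval excluded 1. The variance over mean of a gene's count per thinned cell lay between 0.95 and 1.39 across genes and libraries, where a Poisson count gives 1. It was 1.17 for Txnip over 3225 cells of control day 1 and 1.21 for Pycard over 1878 cells of control day 3. Means were as low as 0.042 UMIs per cell (Casp4 in control day 1), so ratios near 1 do not show that cells were alike.

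As a description of the pattern over the 8 libraries, the genes closest to each member were found by the root mean square difference of centred log2(CPM + 1) values among 6167 genes whose mean over the libraries reached 20 CPM. For Nlrp3 they were Ddx10 (0.07), Gtf2h1 (0.10) and Ap2b1 (0.10), for Nek7 Irf9 (0.07), Slain2 (0.07) and Csnk1g3 (0.08), and for Casp1 Cyfip1 (0.07), Irf1 (0.07) and Inpp5k (0.07). Casp4 was closest to Sppl2a (0.09), Usp12 (0.10) and Map4 (0.11), Pycard to Mrps21 (0.04), Sh3bgrl3 (0.06) and Arhgdib (0.07), and Gsdmd to Il21r (0.07), Amz1 (0.08) and Phc2 (0.09). Txnip had the most distant neighbours, among them Ptpro (0.19) and Pnrc1 (0.23). No other gene of the 7 had its split into control naive, control day 1 and A20 cKO naive against the rest, a grouping read from the Txnip levels themselves. All 8 points are single libraries that share depth and ambient RNA within each set.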

How the data were processed

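Single-cell RNA-seq of YFP-sorted lumbar microglia gave 8 libraries, 1 per group. Whole-number UMI counts were deposited by the authors for each library, with a row for each gene and 14883 barcodes in all. The submitters' processing notes name Cell Ranger 2.1.1 and mm10, and the kit version differs between labels and methods. Cells with at least 1000 UMIs, 500 genes and at most 10% mitochondrial UMIs were kept. Levels are UMI sums as CPM. Ratios had 0.5 UMIs added to each sum, and genes were compared where the sums together reached 100 UMIs. Intervals (95%) are exact Poisson, Clopper-Pearson or conditional, cover counting error only, and a count of 0 was given the limit of 3 counts. Shares used cells thinned to 2000 UMIs, which left out 20 (A20 cKO day 3) to 310 (A20 cKO naive) shallower cells per library. Doublets were excluded at the sort per the methods, and cells above 3 times their library's median were left out as an alternative. Classes were summed per library (at least 20 cells) and tested with edgeR 4.0.16 (filterByExpr, TMM, quasi-likelihood, library block, Benjamini-Hochberg, threshold 0.05) in R 4.3.3. DESeq2 1.42.0 was an alternative. Class marker genes were left out of the calls. On simulated G2/M sums with known changes, the fit was tested before use. Python 3.11.15, numpy 2.4.6, scipy 1.17.1 and matplotlib 3.10.9 did the rest.

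The 7 genes, the pathway lists and the tests were chosen with earlier results of these data known. Named pathway genes were those past 2-fold in any comparison, plus Il1b and Il18. P2rx7 was named after its values were seen. Of the gene identifiers, 27645 of 27998 matched GENCODE M21. The listed symbols Irgb10 and Gsdme were not matched, and the latter gene was counted as Dfna5. Some genes that these rules name are not reported here.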

Additional observations from a re-analysis of the deposited data

Results flagged for a closer look

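For Casp4, day 1 and day 2 against naive went in opposite directions in the 2 genotypes. In control the log2 ratio was −0.74 for day 1 and −0.71 for day 2, while A20 cKO had 0.44 at both times, with all 4 counting intervals away from 0. These were 2 of 21 pairs of a gene and a day, each direction rests on 1 library, and the difference was not tested.

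In 5 of 21 sets of 4 to 8 libraries, the gap of 1 library to its nearest neighbour took up most of the range of the log2 difference between a class of cells and the rest. Chance gives about 1 in 20 such sets where all values have the same error, which was not so here because their counts were very unequal, so the 5 sets are not shown to be more than chance gives. Nek7 (0.23) and Txnip (0.10, counting interval −0.41 to 0.55) were highest in the G2/M cells of A20 cKO day 3, a library with 53 such cells. Casp4 (−0.77, −2.34 to 0.27) and Gsdmd (−1.18, −2.76 to −0.15) were lowest in the G2/M cells of A20 cKO day 1, which rest on 34 cells and 6 UMIs of either gene. Casp1 (0.76, −0.33 to 1.57) was highest in the Il1b cells of A20 cKO day 1, with 11 UMIs in 29 cells.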

How the results depend on the processing

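Of 1001 log2 ratios of single genes between libraries under alternative settings, 978 moved by less than their counting interval and 0 called values changed sign. The 23 that moved did so with levels centred on the median gene (10), cells thinned to 2000 UMIs (8), no dividing cells (3) or means of cell CPM (2). The number of genes past 2-fold changed in 5 of 143 cases. Centred on the median gene it was 1 instead of 2 for control day 3 against day 2 and for A20 cKO against control on day 2, and 2 instead of 1 for A20 cKO against control on day 1. A20 cKO against control on day 2 also gave 1 with the stricter cell filter and 1 without dividing cells. Shares of cells depended on depth throughout, and 1 of 56 moved with another thinning seed.

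Between classes, the fit with no replicate block, in which same-library sums are not paired, called 0 genes for G2/M, 1 for interferon and 0 for Il1b, instead of 3, 3 and 1. The sums are paired because both come from 1 library. Thinning to 2000 UMIs left 1 interferon call and 0 Il1b calls, and limiting the rest by depth or using DESeq2 left 0 Il1b calls, with no adjusted p given by DESeq2 for Casp4. Leaving out each library in turn gave 2 to 3 calls for G2/M, 1 to 3 for interferon and 0 to 1 for Il1b. The causes were not tested. The alternative without cells of clusters named as other cell types was not run, because no clusters were made. Leaving out cells by their markers was chosen after seeing the data. Low counts limit Casp4 and Nlrp3 most, above all in control naive with 58 and 74 UMIs.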
